A study of Mus musculus with 6 samples.

Results

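A set of 10 genes of the bone morphogenetic protein (BMP) pathway were followed through ribosome-bound mRNA of Gli1-lineage cells of the mouse dentate gyrus. The 10 were listed by name, with earlier results of these data known, from 37620 genes counted in each of 6 samples. They were the ligands Bmp2, Bmp4, Bmp6 and Bmp7, the antagonists Nog and Chrd, the receptors Bmpr1a, Bmpr1b and Bmpr2, and the inhibitory SMAD gene Smad6. All 10 had reads in every sample and passed the filter on low counts, which kept 15056 genes.

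All 6 samples came from mice that carried Gli1CreERT2, a tamoxifen-inducible Cre at a Hedgehog target gene, and 1 copy of Rpl22HA f/+ (RiboTag), which puts an HA tag on a ribosomal protein once Cre has acted. Klf9 f/f mice also carried floxed Klf9, a Krüppel-like transcription factor whose exon 1 is removed by Cre, and Klf9 +/+ mice carried the unmodified gene. Mice of 2 to 3 months received 3 tamoxifen injections 12 hr apart, and dentate gyri were taken 4 days after the last. Each sample pooled 6 dentate gyri from 3 mice, with 3 samples per genotype. The study's results and discussion state that Gli1CreERT2 labels radial-glial neural stem cells (RGLs) and also astrocytes, and that recombination of Klf9 is partial. The library names split the samples into series 1 (2 Klf9 +/+ and 2 Klf9 f/f) and series 2 (1 and 1). Replicates 1 and 2 of each genotype are of series 1 and replicate 3 is of series 2.

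BMP ligands are secreted dimers that bind a complex of type I and type II serine-threonine kinase receptors, which phosphorylates SMAD proteins that enter the nucleus and switch on genes such as those of the Id family. Noggin and chordin bind the ligands outside the cell and keep them from the receptors, and SMAD6, itself a BMP target, damps the signal inside the cell. In the adult hippocampus BMP signaling through the type I receptor BMPR1A is known for holding neural stem cells in quiescence. The comparison asks how these genes differed when Klf9 was deleted in Gli1-lineage cells.

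The deletion was measured first. Klf9 (ENSMUSG00000033863) was at 201, 204 and 139 CPM, the gene's counts relative to all counts on genes after scaling between samples, in Klf9 +/+ replicates 1 to 3. The Klf9 f/f samples were at 114, 121 and 120.0 CPM, so the groups did not overlap. At most 5.53% of the genes tested had all Klf9 f/f samples below all Klf9 +/+ samples. These counts cover the whole gene, the deleted exon and the rest together. Klf9 had a log2 fold change of -0.59 (SE 0.15, edgeR's quasi-likelihood test adjusted by Benjamini-Hochberg, adjusted p = 0.844). With no filter on low counts beyond 1 read the adjusted p of Klf9 in the same test was 0.0199, and over all 17 alternatives it ranged from 0.0199 to 0.9999. Reads on genes ranged from 52188635 to 66343759 in series 1 and from 21594714 to 27594529 in series 2. Every marker of the astrocyte (14 of 14) and radial glia (14 of 14) lists was detected and tested, and the 14 astrocyte markers summed to 13279 to 16842 CPM in Klf9 +/+ and 16368 to 20476 CPM in Klf9 f/f. Markers of other cells were present too, and none was at 0 in all samples. The 20 choroid plexus and ependyma markers summed to 321 to 4363 CPM in Klf9 +/+ and 157 to 863 CPM in Klf9 f/f, with Klf9 +/+ replicate 3 the highest.

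Promoter sequences are shown for Bmp4 and Smad6, a ligand and the inhibitory SMAD. They had the lowest fold changes among the members in the promoter set used. Each is the 250 bases before the RefSeq start in build GRCm38.p6, read 5′ to 3′ on the strand of the gene, which is the minus strand for both. Bmp4 lies at chr14:46390670-46390919 and Smad6 at chr9:64022060-64022309. Capitals mark CCGCCC, the core of a GC box, and CACCC, on either strand. Krüppel-like factors are zinc finger proteins known to bind such GC-rich and CACCC elements.
Bmp4: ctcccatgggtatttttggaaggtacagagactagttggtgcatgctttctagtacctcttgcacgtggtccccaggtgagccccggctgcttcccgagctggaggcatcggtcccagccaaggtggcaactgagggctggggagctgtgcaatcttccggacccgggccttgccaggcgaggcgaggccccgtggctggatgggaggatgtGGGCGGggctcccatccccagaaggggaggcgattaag
Smad6: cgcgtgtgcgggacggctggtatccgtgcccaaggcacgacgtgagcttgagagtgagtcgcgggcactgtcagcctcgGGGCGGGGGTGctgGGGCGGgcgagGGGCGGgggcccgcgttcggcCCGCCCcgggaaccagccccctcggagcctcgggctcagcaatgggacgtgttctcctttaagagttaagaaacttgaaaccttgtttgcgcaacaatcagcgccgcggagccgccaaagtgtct
The Bmp4 window held 1 GC box core and no CACCC, and the Smad6 window held 4 GC box cores and 1 CACCC, which follows the first core with no base between them. Of 32851 mouse promoter windows of this length, 32.7% held CCGCCC and 52% held CACCC. The promoter set held 7 of the 10 members, Bmp4, Bmp6, Chrd, Bmpr1a, Bmpr1b, Bmpr2 and Smad6, and lacked Bmp2, Bmp7 and Nog. GC content was 63.2% for Bmp4 and 66.8% for Smad6, against a median of 52.4% over all windows. The windows of Chrd and Bmpr1a were GC-richer at 78% and 78.8%, and each also held 4 GC box cores. Bmpr1a held 1 CACCC besides, the same motif counts as Smad6. The log2 fold changes of Chrd and Bmpr1a were 0.13 and 0.040. GGCGCC, a palindrome bound by BMP-activated SMADs, was in neither the Bmp4 nor the Smad6 window. It was found once each in Chrd, Bmpr1a and Bmpr2, and in 9.59% of all windows.

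Levels between genes were compared as CPM per kilobase of annotated exon (RPKM), averaged over the 6 samples. The receptor Bmpr1a was highest at 12.3 ± 2.36 RPKM (SD, n = 6), at percentile 66.2 of the genes tested, followed by the ligands Bmp6 at 11.8 ± 6.59 and Bmp7 at 8.16 ± 3.28 RPKM. Bmpr1b came next at 4.54 ± 1.62 RPKM. Chrd, Bmp4 and Smad6 lay close together at 3.00 ± 1.25, 2.88 ± 1.06 and 2.45 ± 1.52 RPKM. Bmp2, Nog and Bmpr2 were lowest, at 1.54 ± 0.95, 1.36 ± 0.69 and 1.08 ± 0.25 RPKM, and Bmpr2 stood at percentile 16.9. Of the neighbours in this order, 5 pairs did not differ beyond their spread over samples, namely Bmpr1a and Bmp6, Chrd and Bmp4, Bmp4 and Smad6, Bmp2 and Nog, and Nog and Bmpr2. For these 5 pairs the mean log2 ratio was smaller than its SD over the 6 samples, and the higher gene led in 3 or 4 of 6 samples. Bmp7 was above Bmpr1b in 6 of 6 samples and Smad6 above Bmp2 in 6 of 6. Among the 4 ligands, Bmp6 and Bmp7 together held most of the RPKM in every sample, while Bmp2 held 3.41% to 7.65% and Bmp4 6.74% to 21.8%.

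**Figure D1:**
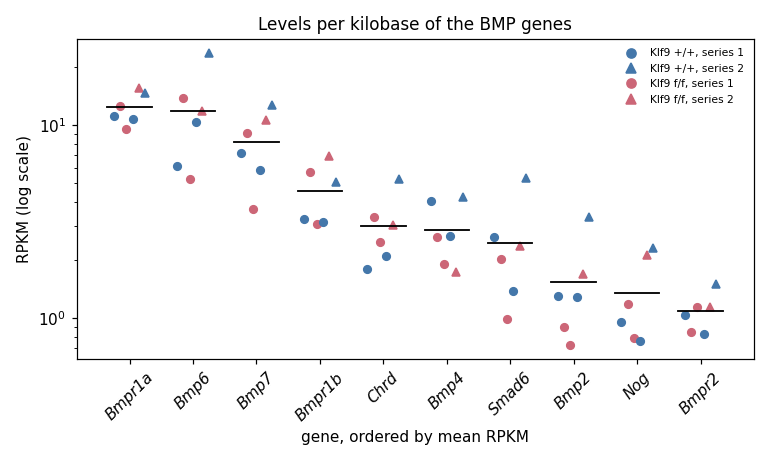
RPKM on a log scale of the 10 BMP genes in the 6 samples, ordered by mean, with circles for series 1, triangles for series 2, colours for genotype and a bar at the mean. Bmpr1a, Bmp6 and Bmp7 lead, and Bmp2, Nog and Bmpr2 lie lowest with overlapping points.

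Genes were called changed between genotypes at a fold change of at least 1.2 and an unadjusted p under 0.05, from edgeR's quasi-likelihood test over all 15056 genes with the library series as a term. This threshold follows the study's methods. By this threshold 2 of the 10 members, Bmp2 and Bmp4, fell in Klf9 f/f, and 0 rose. Over all genes tested 2.5% fell and 1.82% rose by the same threshold. The study itself names Bmp2 and Bmp4 among its lowered genes, and the list was drawn up with that known, so the count of 2 of 10 is partly set by the choice of members and is no independent evidence of a direction. By qRT-PCR on a separate replicate of such mRNA, the study also reports lower Bmp4 and lower Klf9, which was not re-examined here. After Benjamini-Hochberg adjustment over all genes, 0 of 15056 genes (0%) passed, the members included, with 650 genes at an unadjusted p under 0.05. The median log2 fold change of the 10 members was -0.087, against 0.00084 over all genes. Of the members, 6 were below 0 and 4 above. The p-values rest on the spread between these 6 pools of mice within their series, with 3 residual degrees of freedom. The test draws each gene's spread toward a trend over all genes. In bulk mRNA, fewer cells of a type and less RNA per cell cannot be told apart.

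**Figure D2:**
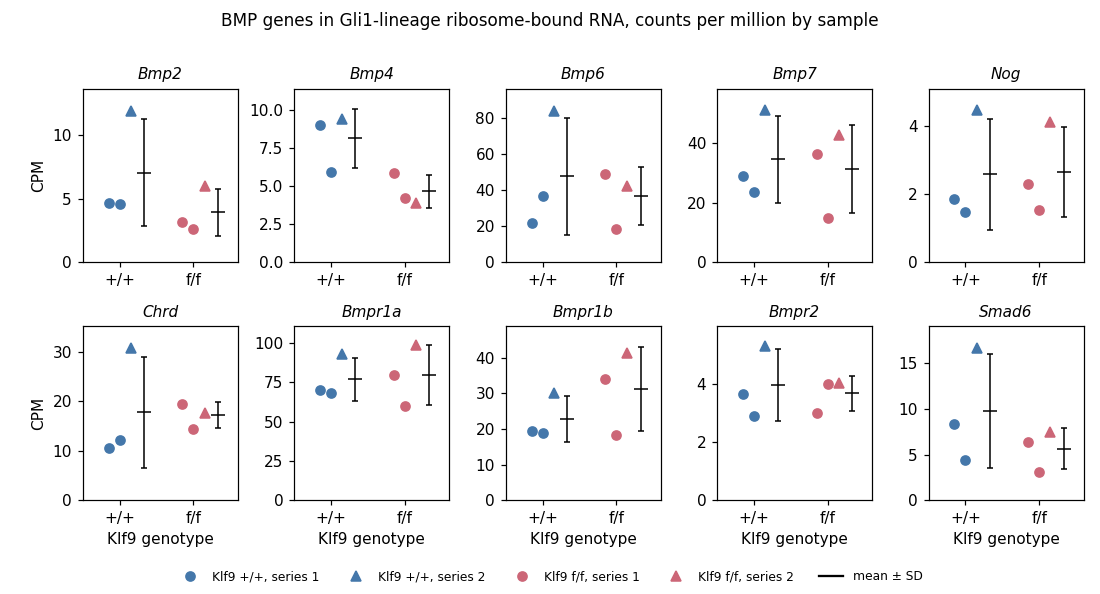
CPM of each BMP gene by Klf9 genotype, each panel on its own linear axis from 0, with 1 point per sample, circles for series 1, triangles for series 2, and the mean ± SD (n = 3) beside each group. For Bmp4 all 3 Klf9 f/f points lie below all 3 Klf9 +/+ points, and for the other 9 genes the groups overlap. The share of all genes separated like Bmp4 was not counted. It cannot exceed 5.53%, the share with every Klf9 f/f sample lower within its own series.

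Bmp4 (ENSMUSG00000021835, mm9 chr14:47003195-47010344), a ligand of the BMP2/4 pair, was at 9.04, 5.95 and 9.44 CPM in Klf9 +/+ replicates 1 to 3 against 5.89, 4.22 and 3.87 CPM in Klf9 f/f. Every Klf9 f/f sample was below every Klf9 +/+ sample, although Klf9 +/+ replicate 2 and Klf9 f/f replicate 1 were nearly level. The level was 1.73-fold lower in Klf9 f/f, a log2 fold change of -0.79 (SE 0.27, edgeR's quasi-likelihood test adjusted by Benjamini-Hochberg, adjusted p = 0.9995, unadjusted p = 0.0166). The exact two-sided permutation test over the 6 samples gave p = 0.1, the smallest that 3 against 3 allows. Within series 1 the log2 difference was -0.55 and within series 2 it was -1.28. The call was lost without Klf9 +/+ replicate 1 (log2 fold change -0.68), without Klf9 f/f replicate 2 (-0.72) and without either sample of series 2 (-0.56 and -0.57). Vessel cell markers were lower in Klf9 f/f as well, and their values follow with the marker lists.

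Bmp2 (ENSMUSG00000027358, mm9 chr2:133377895-133388621), the other ligand of that pair, was at 4.65, 4.56 and 11.9 CPM in Klf9 +/+ against 3.19, 2.59 and 6.01 CPM in Klf9 f/f. Within each series the Klf9 f/f samples were the lower ones, but Klf9 f/f replicate 3 of series 2 was above both Klf9 +/+ samples of series 1. The means were 7.03 ± 4.21 and 3.93 ± 1.83 CPM (SD, n = 3 each), with replicate 3 the highest of each genotype. The log2 fold change was -0.77 (SE 0.22), 1.71-fold lower in Klf9 f/f (edgeR's quasi-likelihood test adjusted by Benjamini-Hochberg, adjusted p = 0.959, unadjusted p = 0.00616). The difference was -0.67 in series 1 and -0.98 in series 2. The call was lost without Klf9 f/f replicate 3 (log2 fold change -0.67) and without Klf9 +/+ replicate 3 (-0.67). Without the series term, which leaves the gap between series in the error, it was also lost, at -0.85. Bmp2 and Bmp4, 2 of 10 members, had every Klf9 f/f sample below the Klf9 +/+ samples of their own series, a pattern shown by 5.53% of all genes. The opposite pattern, all above, was shown by 0 of 10 members and 7.78% of genes.

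Bmp6 (ENSMUSG00000039004, mm9 chr13:38436995-38592183) and Bmp7 (ENSMUSG00000008999, mm9 chr2:172693513-172765822), ligands of the BMP5/6/7 subgroup, had higher levels per kilobase than Bmp2 and Bmp4. Bmp6 was at 22.0, 37.0 and 84.1 CPM in Klf9 +/+ against 49.2, 18.8 and 42.4 CPM in Klf9 f/f. Its highest sample was Klf9 +/+ replicate 3, as in every other member except Bmpr1a and Bmpr1b. That sample was also the highest in the sums of choroid plexus, mural, meningeal and oligodendrocyte lineage markers. The log2 fold change was -0.19, with a 95% interval of -1.04 to 0.67. Bmp7 was at 28.8, 23.4 and 51.0 CPM in Klf9 +/+ against 36.3, 14.8 and 42.6 CPM in Klf9 f/f, with a log2 fold change of -0.11 and an interval of -0.74 to 0.53. In both genes Klf9 f/f replicate 2 was the lowest of all samples, and the genotypes overlapped. Without Klf9 f/f replicate 1, Bmp6, Bmp7 and Smad6 passed as lower too, which made 5 members in place of 2. In that fit 719 of 15017 genes passed as lower, against 376 of 15056 in the fit over 6 samples.

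Noggin (Nog, ENSMUSG00000048616, mm9 chr11:89161952-89163873), which sequesters BMP2 and BMP4 with high affinity, was at 1.84, 1.46 and 4.44 CPM in Klf9 +/+ against 2.29, 1.53 and 4.10 CPM in Klf9 f/f. The 2 samples of series 2 stood above the 4 of series 1, and the genotypes overlapped within series 1. Nog had a log2 fold change of 0.10 and an interval of -0.55 to 0.76. Chordin (Chrd, ENSMUSG00000006958, mm9 chr16:20733200-20742457), cut by BMP1-type proteases to free the ligand, was at 10.5, 12.2 and 30.8 CPM in Klf9 +/+ against 19.6, 14.4 and 17.6 CPM in Klf9 f/f. In series 1 both Klf9 f/f samples were above both Klf9 +/+ samples, and in series 2 the order was the opposite. The log2 fold change over both series was 0.13 with an interval of -0.50 to 0.76.

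**Figure D3:**
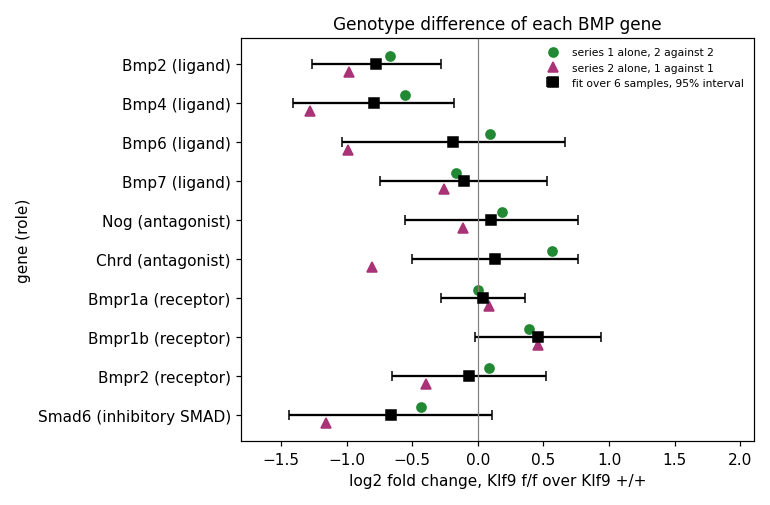
Log2 fold change of Klf9 f/f over Klf9 +/+ for each BMP gene, with squares and 95% intervals from the fit over 6 samples, circles for the difference of mean log2 CPM in series 1 and triangles for series 2. Intervals of Bmp2 and Bmp4 end below 0, the interval of Bmpr1b reaches from -0.024 to 0.94, and Chrd has its circle and triangle on opposite sides of 0.

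Of the receptors, Bmpr1a (ENSMUSG00000021796, mm9 chr14:35223920-35316527, type I) was the steadiest, at 70.5, 68.0 and 93.0 CPM in Klf9 +/+ and 79.8, 60.3 and 98.7 CPM in Klf9 f/f. This was a log2 fold change of 0.040 with an interval of -0.28 to 0.36. Bmpr1b (ENSMUSG00000052430, mm9 chr3:141500100-141832389), the second type I receptor, was at 19.5, 18.7 and 30.1 CPM in Klf9 +/+ against 34.1, 18.4 and 41.4 CPM in Klf9 f/f. Klf9 f/f replicates 1 and 3 were above all Klf9 +/+ samples, and Klf9 f/f replicate 2 was below them all. This gave a log2 fold change of 0.46 with an interval of -0.024 to 0.94, and Bmpr1b did not pass the threshold (edgeR's quasi-likelihood test, unadjusted p = 0.06). Leaving out 1 Klf9 f/f sample moved it both ways, to 0.68 without replicate 2, where it passed, and to 0.17 without replicate 1, where it did not. Bmpr2 (ENSMUSG00000067336, mm9 chr1:59821481-59927703), the type II receptor, was at 3.64, 2.90 and 5.29 CPM in Klf9 +/+ against 2.98, 4.00 and 4.01 CPM in Klf9 f/f, with a log2 fold change of -0.068 and an interval of -0.66 to 0.52.

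Smad6 (ENSMUSG00000036867, mm9 chr9:63800953-63869866), which blocks the type I receptors and is switched on by BMP signaling, was at 8.31, 4.37 and 16.6 CPM in Klf9 +/+ against 6.33, 3.12 and 7.44 CPM in Klf9 f/f. Klf9 +/+ replicate 2 was below 2 of the 3 Klf9 f/f samples. Smad6 had a log2 fold change of -0.66 with an interval of -1.44 to 0.11 and did not pass the threshold (edgeR's quasi-likelihood test, unadjusted p = 0.0848). The difference was -0.43 in series 1 and -1.16 in series 2. It passed as lower without Klf9 f/f replicate 1 (-1.08) and without Klf9 +/+ replicate 2 (-0.96).

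The members also differed between the library series. In the same fit Bmp2, Nog and Bmpr1a, 3 of 10, were higher in series 2 at an adjusted p under 0.05, and 0 of 10 were lower, against 12.9% higher and 16.6% lower over all genes. The log2 fold changes of series 2 over series 1 were 1.22 for Bmp2, 1.27 for Nog and 0.46 for Bmpr1a (edgeR's quasi-likelihood test adjusted by Benjamini-Hochberg, adjusted p = 0.0064, 0.0146 and 0.045). Bmp4 was at 0.0018 with a standard error of 0.30, and the other 6 members lay between 0.46 and 1.04 without passing. The series differ in depth and in marker content, whose part in these differences was not tested.

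Markers of vessel cells moved with genotype beside Bmp4 and Smad6. All 17 endothelial markers were lower in Klf9 f/f, 4 of them past the threshold, with a median log2 fold change of -0.99. All 12 mural markers were lower, 6 past the threshold, with a median of -0.84, and all 15 meningeal and fibroblast markers were lower, 3 past it, with a median of -0.47. The 12 mural markers summed to 964, 594 and 1138 CPM in Klf9 +/+ replicates 1 to 3 and to 769, 445 and 639.5 CPM in Klf9 f/f. The 17 endothelial markers summed to 707, 339.8 and 553 CPM in Klf9 +/+ and to 504, 173 and 248 CPM in Klf9 f/f. Klf9 +/+ replicate 2, the lowest of its genotype in Bmp4 and Smad6, was also the lowest of it in both vessel lists. This was not particular to these genes or lists. The same sample was the lowest of its genotype in every other member except Bmp6 and Chrd. It was also the lowest in the sums of the astrocyte, radial glia and microglia markers.

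The likeness between members and markers was described as a Pearson correlation of log2 CPM with each series' mean subtracted, over 6 samples that share libraries and depth. Bmp4 followed the mural markers (r = 0.98) and the endothelial markers (r = 0.89). Smad6 followed both as well (r = 0.97 and 0.98). Members that were not called also had high values. Bmp7 had an r of 0.88 with the meningeal and 0.86 with the endothelial markers, and Nog 0.98 with the microglia markers. Bmp2 was most alike to the choroid plexus markers (r = 0.89). All 20 of these were lower in Klf9 f/f, 18 past the threshold, with a median log2 fold change of -2.13. Bmpr1b followed the astrocyte markers (r = 0.92), all 14 of them higher, 5 past the threshold, with a median of 0.36. The radial glia list had 2 of 14 past the threshold as higher and 2 of 14 below 0, with a median of 0.14. Past the threshold, the oligodendrocyte lineage list had 2 of 12 higher and 1 lower. The granule neuron and microglia lists had 0 of 11 each past it in either direction. Subtracting series means leaves few independent values, and at this n a high r is common, since 143 of the genes tested had an r above 0.95 with Bmp4 and 69 with Bmp2. The 5 genes most alike to Bmp4 were Igfbp6, Pcp4l1, Neat1, Acer3 and Cd163, at an r of 0.996 to 0.999. For Bmp2 they were B230217O12Rik, Gm12352, Gjc1, B3gnt3 and Gm15773, at 0.988 to 0.994. Among members, Bmp2 and Bmp4 had an r of 0.92, and Bmp4 and Smad6 an r of 0.94.

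**Figure D4:**
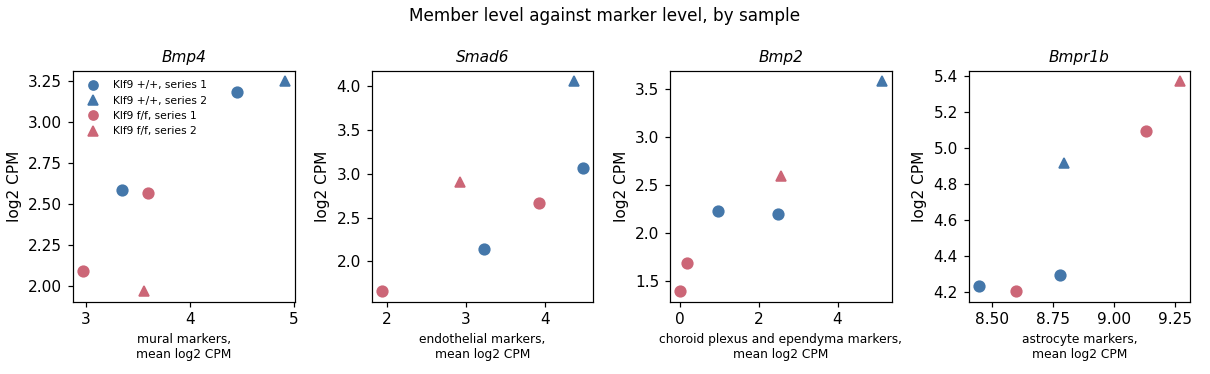
Log2 CPM of Bmp4, Smad6, Bmp2 and Bmpr1b on the vertical axes against the mean log2 CPM of the mural, endothelial, choroid plexus and astrocyte marker lists, with 1 point per sample, circles for series 1 and triangles for series 2. Within series 1 the Bmp4 points climb with the mural markers, and Klf9 +/+ replicate 2 lies beside Klf9 f/f replicate 1.

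In a fit that added the mean level of the endothelial, mural and meningeal lists, the log2 fold change of Bmp4 was -0.35 and that of Bmp2 -0.61, and neither passed the threshold. In that fit Smad6 was at 0.079, and Bmpr1b at 0.80 and Bmp7 at 0.45 passed as higher. With the choroid plexus and ependyma list added instead, Bmp4 was at -1.01, Bmp2 at -0.64 and Bmp6 at 1.25, and none passed. With the astrocyte list added, Bmp4 (-1.06), Bmp2 (-0.87), Bmp7 (-0.80) and Smad6 (-1.25) passed as lower, and Bmpr1b was at 0.018. Bmp2 and Bmp4 kept their direction in all of these fits. Each covariate leaves 2 residual degrees of freedom, and the markers differ with genotype.

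**Figure D5:**
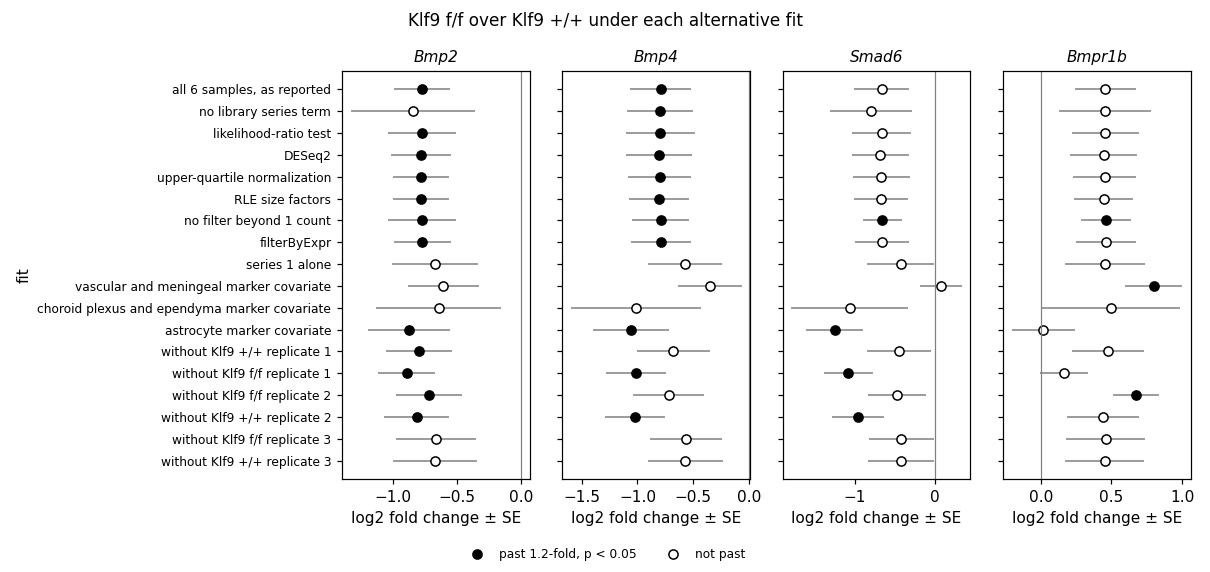
Log2 fold change ± SE of Bmp2, Bmp4, Smad6 and Bmpr1b in the fit reported and in 17 alternative fits, filled where the gene passed a fold change of 1.2 with an unadjusted p under 0.05. Bmp2 and Bmp4 lie below 0 in every fit shown, Smad6 reaches 0.079 with the vascular and meningeal covariate, and Bmpr1b reaches 0.018 with the astrocyte covariate.

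The rest of the pathway was read from 61 further genes in lists of ligands, antagonists, receptors, SMADs and their regulators, processing proteases and targets. Of these, 49 were tested, 3 fell and 2 rose, and their median log2 fold change was -0.044. The share called, 5 of 49, stands beside 2.5% lower and 1.82% higher over all genes. None passed after adjustment.

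Among the 12 further ligands only Bmp3, Bmp5, Gdf10 and Gdf11 passed the filter on low counts, and none was called. Gdf10 was the most abundant at 8.15 ± 1.30 RPKM (SD, n = 6), level with Bmp7, with a log2 fold change of -0.021. Gdf11 was at 1.91 ± 0.58 RPKM and a log2 fold change of -0.26.

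Of 14 antagonists tested, Sostdc1 fell and Cer1 rose. Sostdc1, a secreted BMP and Wnt antagonist that is also on the choroid plexus list, was at 2.91, 10.7 and 53.8 CPM in Klf9 +/+ and 0.93, 1.21 and 7.35 CPM in Klf9 f/f, a log2 fold change of -2.75 (SE 0.42). Klf9 +/+ replicate 3 was the highest in Sostdc1 and in the whole choroid plexus list. In Klf9 f/f, replicate 1 was below replicate 2 in Sostdc1 and above it in the list, at 253 against 157 CPM. Cer1, a cerberus family antagonist, was at 1.80, 1.22 and 0.56 CPM in Klf9 +/+ and 3.53, 1.87 and 1.29 CPM in Klf9 f/f, a log2 fold change of 0.94 (SE 0.37), on low counts. The antagonist genes with the highest levels were Nbl1 at 93.0 ± 12.9 RPKM and Twsg1 at 31.1 ± 5.56 RPKM. Both exceeded Chrd and Nog, and their log2 fold changes were 0.11 and -0.12.

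Of 7 receptors and co-receptors tested, Acvrl1 fell. Acvrl1, the type I receptor of endothelial cells and itself an endothelial gene, was at 14.5, 7.58 and 16.7 CPM in Klf9 +/+ and 9.81, 2.57 and 6.23 CPM in Klf9 f/f, a log2 fold change of -1.02 (SE 0.45). The groups overlapped. The co-receptors Rgmb and Rgma had the highest levels, at 14.3 ± 3.11 and 13.7 ± 9.95 RPKM, with log2 fold changes of -0.085 and 0.37 that did not pass.

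Of 11 SMADs and regulators, Smurf2 fell. Smurf2, a ubiquitin ligase that marks SMADs and receptors for degradation, was at 26.8, 26.8 and 28.9 CPM in Klf9 +/+ and 20.4, 21.1 and 24.6 CPM in Klf9 f/f, a log2 fold change of -0.32 (SE 0.13). All 3 Klf9 f/f samples were below all 3 Klf9 +/+ samples. The share of all genes separated in this way was not counted and cannot exceed 5.53%, the share lower within each series. Smad4, the common partner of the receptor SMADs, and Smad1, a BMP-specific one, were highest at 47.6 ± 4.45 and 27.1 ± 2.20 RPKM, and their log2 fold changes were -0.082 and 0.050.

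Of 6 proteases tested, Pcsk6 rose. Pcsk6, a proprotein convertase that can cleave BMP precursors, was at 85.9, 79.8 and 117 CPM in Klf9 +/+ and 119.6, 89.1 and 178 CPM in Klf9 f/f, a log2 fold change of 0.42 (SE 0.15). Pcsk6 and Bmp1, the chordin-cleaving metalloprotease, were the most abundant at 26.5 ± 8.68 and 12.6 ± 2.73 RPKM, and Bmp1 had a log2 fold change of 0.085.

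Of the 8 BMP target genes, all tested, none was called. Id1, Id2, Id3 and Id4, the inhibitors of differentiation switched on by BMP SMADs, had log2 fold changes of 0.076, -0.14, 0.086 and 0.11. Id2 and Id4 were the most abundant at 395 ± 150.2 and 301 ± 23.9 RPKM. The 95% intervals were -0.28 to 0.44 for Id1, -0.64 to 0.36 for Id2, -0.25 to 0.43 for Id3 and -0.18 to 0.40 for Id4.

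Counting did not use strand, so a read in exons shared with a gene on the other strand cannot be assigned by strand. Reads that HTSeq set aside as ambiguous, 1.35% to 2.64% of the total over all genes, were left out. In the mm9 annotation Bmp6 shares 236 exonic bases (6.58% of its exons) with Txndc5, Bmpr1a shares 290 with Gm17110, Chrd shares 154 with Thpo and Bmp4 shares 89 with Gm15217. Gm15217 had 0 or 1 read in every sample, and the remaining members had no such partner.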

How the data were processed

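Ribosome-bound mRNA was sequenced from 6 pools of dentate gyri. By the study's methods, the authors aligned 50 bp reads to mm9 with STAR and counted them per gene with HTSeq 0.6.0 without strand, and they deposited whole-number counts with no normalization. The genome build and both tools also stand in the submitters' processing notes. After TMM normalization the counts entered the quasi-likelihood fit (glmQLFit, glmQLFTest) of edgeR 4.0.16 in R 4.3.3, with the library series as a term, on 15056 genes above 1 CPM in at least 1 sample. Calls used a fold change of at least 1.2 with an unadjusted p under 0.05. DESeq2 1.42.0, other normalizations, filters and samples left out were alternatives. CPM was computed on TMM-scaled library sizes, RPKM as CPM per kilobase of merged GENCODE M1 exons, and log2 CPM with a prior count of 2. The summary lines of HTSeq were left out and held 16.4% to 26.6% of the total. The pools are numbered in accession order within a genotype. The scripts were tested on simulated counts.

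The members and lists were chosen with earlier results of these data known. The text names the 10 members, Klf9, Id1 to Id4, every called gene of the wider lists, the 2 most abundant genes per list, and the 5 genes most alike to each called member. The genes that overlap members and the promoter values of Chrd and Bmpr1a were added after the values were seen.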

Additional observations from a re-analysis of the deposited data

Results flagged for a closer look

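Chrd, the chordin gene, moved in opposite directions in the 2 library series. The log2 difference of Klf9 f/f minus Klf9 +/+ was 0.57 in series 1, where both Klf9 f/f samples were above both Klf9 +/+ samples, and -0.80 in series 2, with 1 sample per genotype. The difference between the series in a fit with an interaction term was -1.39 on the log2 scale with a standard error of 0.43 (edgeR's quasi-likelihood test adjusted by Benjamini-Hochberg, adjusted p = 0.99995, unadjusted p = 0.00787). Series 2 adds no spread of its own. This error thus rests on the 4 samples of series 1 and on the trend over all genes that the test draws on. Chrd was singled out because its 2 differences had opposite signs, so the unadjusted p is no independent evidence. Over all 15056 genes the interaction passed an adjusted p under 0.05 for 0 genes and an unadjusted p under 0.05 for 231 genes (1.53%). Thpo, which lies on the other strand and shares 154 exonic bases with Chrd, was at 2.75, 2.71 and 6.53 CPM in Klf9 +/+. In Klf9 f/f it was at 3.65, 5.17 and 3.34 CPM, so its samples also went up in series 1 and down in series 2. Whether the 2 genes are linked was not tested.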

How the results depend on the processing

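Each member was refitted under 17 alternatives. Bmp2 and Bmp4 kept their direction in all 17 and passed the threshold in 11 and 10 of them. The likelihood-ratio test, DESeq2, upper-quartile or RLE normalization and filterByExpr changed no call or direction of a member. Genes past an adjusted p under 0.05 numbered 0 as reported, 58 with the likelihood-ratio test, 39 with DESeq2, 334 with no filter, 59 and 26 with the vascular and astrocyte covariates, 13 in series 1 alone and 0 to 15 with a sample left out. No paired analysis was possible because the replicate numbers are only names given in accession order. Where a sample of series 2 is left out, its partner is taken up by the series term, so these fits rest on series 1. Series 2 has 1 sample per genotype, and the cause of the shifts below was not tested.

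With no series term, members passing as lower numbered 1 (2 as reported), wider-list genes 1 lower and 0 higher (3 and 2), all genes 163 lower and 50 higher (376 and 274), and Chrd was at -0.049. With no filter beyond 1 count, 3 members passed as lower (Smad6 added) and 1 as higher (Bmpr1b), and 926 genes passed as lower and 513 as higher. In series 1 alone, 0 members passed as lower and 1 as higher, the wider list gave 1 lower and 1 higher, all genes 202 and 163, and Bmp6 was at 0.21 and Bmpr2 at 0.085. The vascular and meningeal covariate gave 0 members lower and 2 higher, 5 wider-list genes higher, 777 genes lower and 787 higher, and Bmp6 0.24, Bmp7 0.45 and Smad6 0.079. The choroid plexus covariate gave 0 members lower, 1 wider-list gene lower, 542 genes lower and 297 higher, Bmp6 1.25 and Nog -0.012. The astrocyte covariate gave 4 members lower, 0 wider-list genes higher, 652 genes lower and 133 higher, Nog -0.20, Bmpr1a -0.16 and Bmpr2 0.070.

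With each sample left out in turn, members passing as lower ranged from 0 to 5 and as higher from 0 to 1, wider-list genes from 1 to 4 lower and 0 to 4 higher, and all genes from 209 to 719 lower and 130 to 493 higher. The log2 fold change ranged from -0.80 to 0.21 for Bmp6, -0.58 to 0.17 for Bmp7, -0.11 to 0.23 for Nog, -0.13 to 0.58 for Chrd, -0.077 to 0.15 for Bmpr1a, -0.25 to 0.092 for Bmpr2, 0.17 to 0.68 for Bmpr1b and -1.08 to -0.42 for Smad6. By CPM in place of RPKM, Bmp4 and Smad6 and likewise Nog and Bmpr2 traded places in the order of levels.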
